A study of Mus musculus with 4 samples.

Results

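Moxd2, Moxd1 and Dbh are related genes for copper-dependent monooxygenases. They were chosen by family, with Moxd2 at the head because its signal differed most between flagellin and PBS, so its flagellin values are given as a description, with no test. Each of the 3 genes had 1 probe set that maps to it alone, out of 19938 genes measured. The RNA came from the mucosa of nasal septum and turbinates of mice aged 8 weeks, and 4 Affymetrix whole-transcript arrays were hybridised. The groups were Duox2-/- mice given flagellin, Duox2-/- mice given PBS, wild-type mice given flagellin and wild-type mice given PBS, with 1 array each. The strain is labelled C56BL/6 throughout. Each nostril received 25 ul, with flagellin at 5 ug/ml where it was given, and exposure lasted 4 h. Flagellin forms the filament of bacterial flagella and is a ligand of a Toll-like receptor. Duox2 is an oxidase that makes hydrogen peroxide at epithelial surfaces. The sources used here do not state whether an array holds 1 mouse or a pool, nor how the Duox2 allele was made.

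Enzymes of this family use copper and ascorbate to place an oxygen atom on their substrate. Dbh, dopamine beta-hydroxylase, turns dopamine into noradrenaline inside vesicles of sympathetic neurons and adrenal chromaffin cells. Moxd1 encodes a homologue held in the endoplasmic reticulum, and Moxd2 one known from the olfactory epithelium of the mouse. The human counterpart of Moxd2 is a pseudogene. The natural substrates of the MOXD proteins are not established. Pam, a more distant relative, amidates the ends of peptide hormones.

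With 1 array a group there are no replicates, no difference between 2 arrays has a replicate check, and the number of arrays limits the precision of every value. Signals are log2 values after RMA, so a difference of 1 is 2-fold. Levels of different probe sets are not set against each other. The median of all values, 6.52, stood in for the border of dim signal, and the 12471 genes that reached it on at least 1 array were counted. The array medians lay between 6.48 and 6.56. Duox2 itself had log2 signals of 5.50 and 5.23 in the flagellin and PBS arrays labelled Duox2-/-, against 5.12 and 4.95 in the wild-type flagellin and PBS arrays. It was thus dim throughout and not lower in the arrays labelled Duox2-/-. The sources used here do not state where its probes lie relative to the altered part of Duox2.

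Moxd2 was bright in both flagellin arrays and dim in both PBS arrays. In the arrays labelled Duox2-/- its log2 signal was 8.68 after flagellin, against 5.01 after PBS. In wild type it was 9.10 after flagellin, against 3.99 after PBS. The difference was 3.67 in the arrays labelled Duox2-/-, or 12.7-fold, and 5.10 in wild type, or 34.4-fold. Both PBS signals are under the border of dim signal, so the size of these differences depends on values near background. With all values under 6.52 raised to it, the difference was 2.15 in the arrays labelled Duox2-/-, or 4.45-fold, and 2.57 in wild type, or 5.95-fold.

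**Figure D1:**
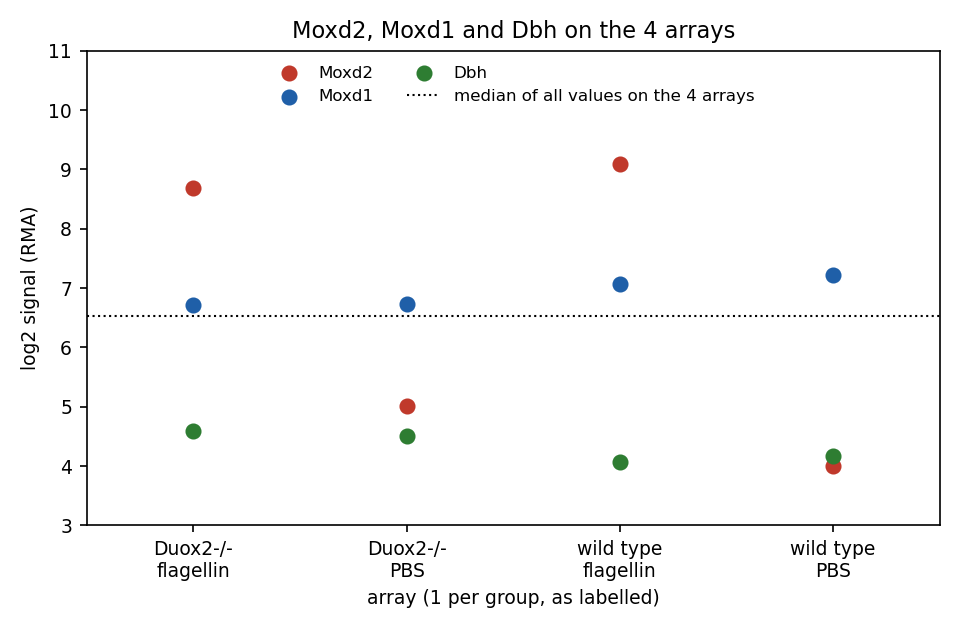
Log2 signal of Moxd2, Moxd1 and Dbh on each of the 4 arrays, 1 point per array, with the dotted line at the median of all values (6.52). Moxd2 sits at 8.68 and 9.10 in the flagellin arrays and at 5.01 and 3.99 in the PBS arrays, while Moxd1 spans 0.50 and Dbh 0.53 over the 4 arrays.

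Among the 12471 genes Moxd2 had the largest flagellin difference in wild type and the next to largest in the arrays labelled Duox2-/-. There the predicted gene 5430401F13Rik was first at 3.78, and its difference was 0.13 in wild type. After Moxd2 came the olfactory receptor genes Olfr536 at 1.65 and Olfr728 at 1.54. In wild type Moxd2 was followed by Myh4, a fast muscle myosin, at 3.33 and Ngp, a neutrophil granule gene, at 2.97. In the arrays labelled Duox2-/- these genes were at -1.10 and -0.16. Myh4 reached the border of dim signal only on the wild-type flagellin array, and Olfr536 only on the flagellin array labelled Duox2-/-. Olfr728 reached it only on the flagellin arrays, so nothing is read from the ranks of these genes. At least 2-fold higher after flagellin were 0.176% of genes in the arrays labelled Duox2-/-, 0.922% in wild type and 0.112% in both. In either direction 0.682% of genes were past 2-fold in the arrays labelled Duox2-/- and 0.978% in wild type. Moxd2 was the 1 member of 3 past this size, and since its choice used these differences, nothing is read from that count.

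Over all 35556 probe sets, dim ones and those without a gene included, 27 were at least 2-fold higher after flagellin in both genotypes. A difference of at least 2 on the log2 scale in both was found for 1 probe set, that of Moxd2. Of 16792 probe sets under the border of dim signal in both PBS arrays, 66 were at or above it in both flagellin arrays. Among these 66, only that of Moxd2 exceeded the border by 1 log2 unit or more on both. Moxd2 was chosen for these same differences, so nothing is read from its place in these counts.

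**Figure D2:**
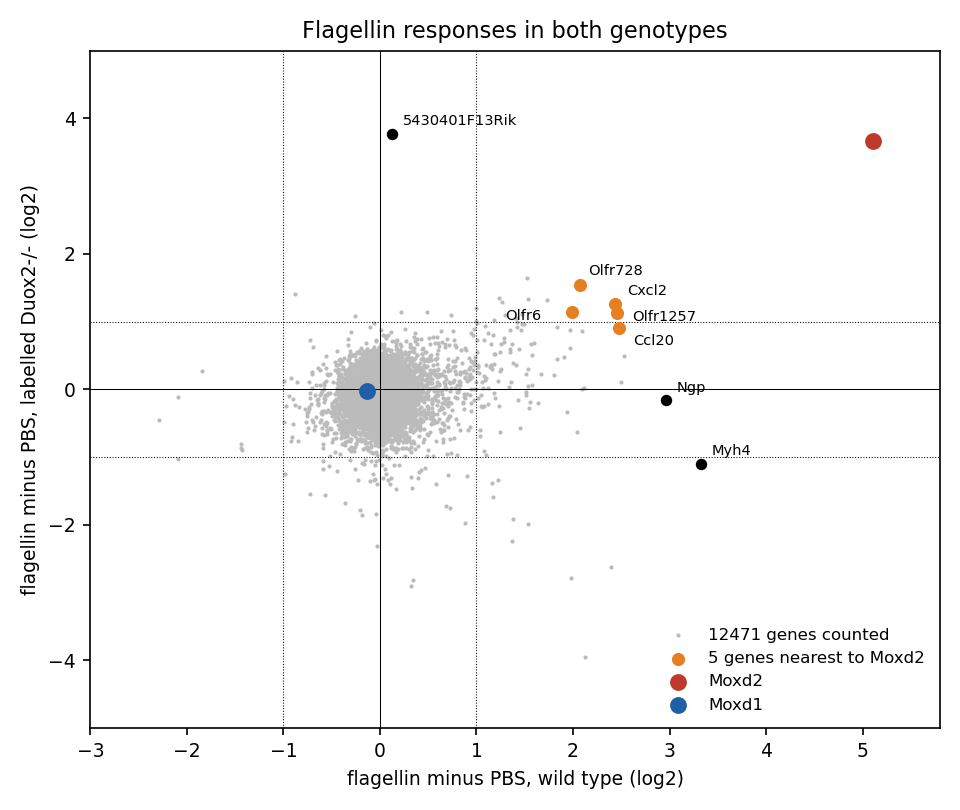
Flagellin minus PBS (log2) in the arrays labelled Duox2-/- on the y axis against wild type on the x axis, for 12471 genes (grey), with dotted lines at 2-fold. Moxd2 lies alone at 3.67 and 5.10, Moxd1 lies in the cloud at -0.02 and -0.14, and Myh4 lies at -1.10 and 3.33. The 5 genes nearest to Moxd2 in pattern are orange, and Dbh is dim and not drawn.

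Moxd1 and Dbh had small differences between treatments. Moxd1 had a log2 signal of 6.71 after flagellin against 6.73 after PBS in the arrays labelled Duox2-/-, and of 7.07 against 7.21 in wild type. Its flagellin differences of -0.02 and -0.14 lay within the robust SD of all counted genes, 0.231 in the arrays labelled Duox2-/- and 0.145 in wild type. Dbh had 4.60 after flagellin against 4.51 after PBS in the arrays labelled Duox2-/-, and 4.07 against 4.16 in wild type. It was dim on all 4 arrays, and its differences of 0.09 and -0.09 lay within the robust SD of the 7467 dim genes, 0.227 and 0.205. Pam had 9.07 after flagellin against 9.70 after PBS in the arrays labelled Duox2-/-, and 9.54 against 9.71 in wild type, differences of -0.63 and -0.16. Both lay outside the robust SD of all counted genes, at their 2.47 and 14.2 percentiles.

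An additive limma model, with a flagellin term common to both genotypes and a genotype term common to both treatments, took its error from 1 residual degree of freedom and the spread shared over 12471 genes. Its flagellin term for Moxd1 was -0.08 ± 0.13 (SE, adjusted p = 0.985), and for Pam -0.40 ± 0.15 (SE, adjusted p = 0.653). Among all genes tested the term was called for 0.281%. The interaction serves as the error of this limma fit, so the fit does not test whether the flagellin responses differ between genotypes. With 1 array a group, its SE and p cannot separate such differences from variation between mice. Dbh was too dim to enter.

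The start regions of the 3 genes are shown because Moxd2 differed between treatments by far more than its relatives. Each covers 250 bases before and 50 bases after the annotated start in RefSeq on GRCm38.p6, and all 3 genes matched. The first transcribed base is in capitals, as are matches to the motifs named below. The Moxd2 window is chr6:40887445-40887744 on the minus strand, that of Moxd1 is chr10:24223267-24223566 on the plus strand and that of Dbh is chr2:27165257-27165556 on the plus strand.
Moxd2: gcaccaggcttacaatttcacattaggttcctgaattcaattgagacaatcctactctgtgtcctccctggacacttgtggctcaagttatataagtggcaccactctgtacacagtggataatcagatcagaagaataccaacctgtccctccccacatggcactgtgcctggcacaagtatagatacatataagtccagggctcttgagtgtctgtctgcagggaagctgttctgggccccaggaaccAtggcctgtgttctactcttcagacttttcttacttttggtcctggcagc
Moxd1: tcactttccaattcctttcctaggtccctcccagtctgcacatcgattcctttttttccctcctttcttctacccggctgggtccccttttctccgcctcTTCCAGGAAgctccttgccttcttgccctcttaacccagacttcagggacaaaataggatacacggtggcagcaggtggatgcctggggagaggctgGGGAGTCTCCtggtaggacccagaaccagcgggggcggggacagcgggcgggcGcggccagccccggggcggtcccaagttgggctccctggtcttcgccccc
Dbh: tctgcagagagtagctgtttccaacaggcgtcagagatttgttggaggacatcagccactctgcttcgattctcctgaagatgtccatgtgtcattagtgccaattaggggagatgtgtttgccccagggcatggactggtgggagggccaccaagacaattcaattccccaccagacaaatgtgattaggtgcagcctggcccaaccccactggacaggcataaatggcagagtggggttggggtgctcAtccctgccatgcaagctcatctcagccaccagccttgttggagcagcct

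Both strands were searched for 5 motifs, which do not overlap in these windows. The Moxd2 and Dbh windows held none of them: the NF-kB consensus (in 8.46% of 32851 promoter windows), the AP-1 site TGACTCA (5.20%), the STAT site TTCNNNGAA (8.30%), the Ebf consensus (0.904%) and the TATA box TATAAA (13.6%). The Moxd1 window held 1 NF-kB consensus match, which starts at base -53 from the start site, and 1 STAT match, which starts at -150. The annotated transcript of Moxd2 begins with ATG, so its window may not be centred on where transcription starts. The Moxd2 window had 0 CpG dinucleotides and a GC content of 48%, that of Moxd1 had 13 and 61.7%, and that of Dbh had 2 and 54%, where the median over all windows was 7 and 52.7%.

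The genotype differences of Moxd2 are made of the same values that chose it. They are given as a description, and nothing is read from the counts beside them. After flagellin Moxd2 was at 8.68 in the array labelled Duox2-/- against 9.10 in wild type, a difference of -0.42. No member was past 2-fold here, where 2% of genes were in either direction and 0.353% were at least 2-fold higher. After PBS, Moxd2 was at 5.01 in the array labelled Duox2-/- against 3.99 in wild type, a difference of 1.02. Of all genes 1.13% were at least 2-fold higher in this comparison and 1.41% past 2-fold in either direction, and Moxd2 was the 1 member that was. This difference between dim signals after PBS was under 2-fold after each of 3 other normalisations, at 0.854 to 0.955, and 0 once dim values were raised to the border. The genotype term of Moxd2 in the limma model was 0.30, the mean of its differences after flagellin and after PBS, and no test is given for it.

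The flagellin difference of Moxd2 was 3.67 in the arrays labelled Duox2-/- and 5.10 in wild type, so that wild type minus Duox2-/- was 1.43. In this contrast 1.44% of genes were at least 2-fold above 0 and 1.58% past 2-fold either way, and Moxd2 was the 1 member that was. The contrast is made of the flagellin differences that chose Moxd2, so nothing is read from that count. With dim values raised to the border it was 0.42, the size of the difference between the flagellin arrays.

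Moxd1 had lower signals in both arrays labelled Duox2-/-, by a log2 difference of -0.37 after flagellin (6.71 against 7.07 in wild type) and of -0.48 after PBS (6.73 against 7.21 in wild type). In limma the genotype term was -0.42 ± 0.13 (SE) with an unadjusted p of 0.0104 and an adjusted p of 0.0980, which missed the threshold of 0.05. Moxd1 was thus not called for this limma term, where 4.37% of all genes were.

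Dbh had higher signals in both arrays labelled Duox2-/-, at 4.60 against 4.07 in wild type after flagellin and 4.51 against 4.16 in wild type after PBS, differences of 0.53 and 0.35. Dim genes as a whole were shifted the same way. Of 7467 dim genes, 79.8% were higher in the array labelled Duox2-/- in each treatment, with median differences of 0.28 after flagellin and 0.21 after PBS, where the counted genes had -0.12 and -0.04. The Dbh differences lay at the 78.3 and 69.7 percentiles of the dim genes, and they were 0.276 and 0.152 under the normalisation that lowered them most. Fewer cells of a type and less RNA per cell cannot be told apart in such bulk samples.

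**Figure D3:**
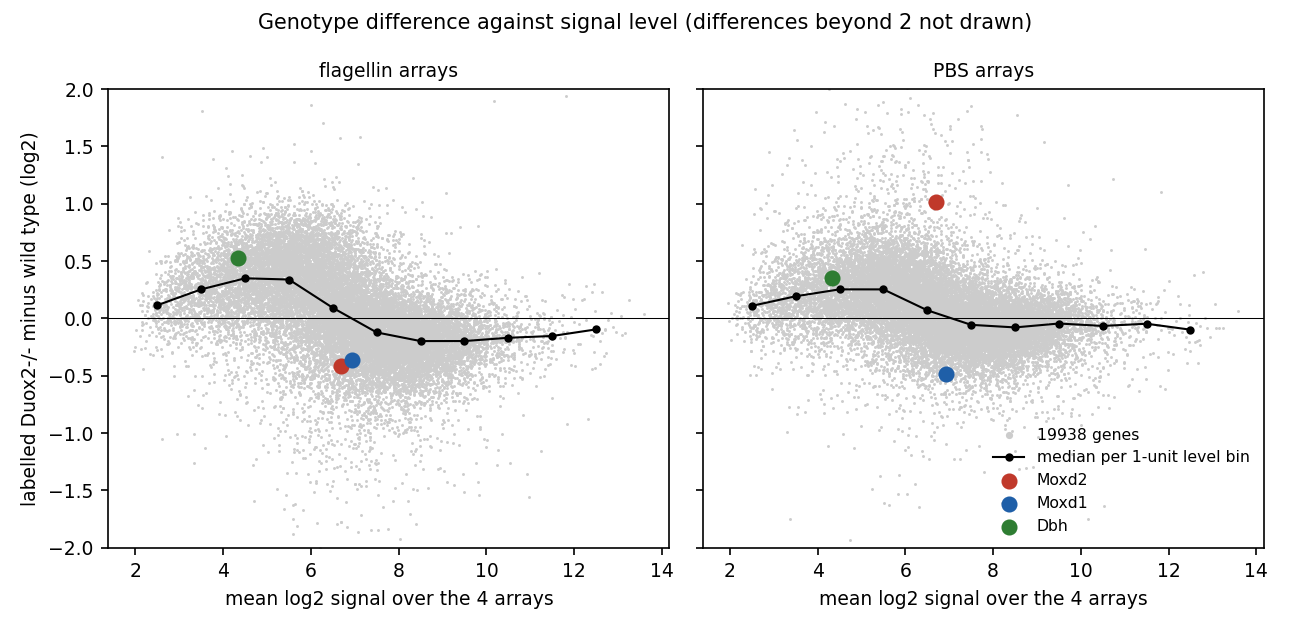
Difference between the array labelled Duox2-/- and the wild-type array (log2) against the mean log2 signal over the 4 arrays, for 19938 genes (grey) after flagellin and after PBS, with the median per bin of 1 log2 unit in black. Dim genes lie mostly above 0, and Dbh (0.53 and 0.35) lies near the medians of 0.35 and 0.25 in the bin from 4 to 5, while Moxd1 (-0.37 and -0.48) lies below the medians of its bin, 0.09 and 0.07.

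The genes next to Moxd2 on chromosome 6 had no difference of comparable size. It lies between the maltase gene Mgam and the T cell receptor segment Trbv1. Over the 3 measured genes on each side, the flagellin differences spanned -0.10 to 0.22 in the arrays labelled Duox2-/- and -0.12 to 0.62 in wild type. Clec5a, a myeloid lectin gene at the upper end in wild type, had 4.85 after flagellin against 4.95 after PBS in the arrays labelled Duox2-/-, and 5.95 against 5.34 in wild type. Trbv1, the 1 neighbour of 6 that was not dim, had 6.68 against 6.57, and 6.20 against 6.13 in wild type.

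None of the neighbours of Moxd1 and Dbh was past 2-fold after flagellin either. Those of Moxd1 on chromosome 10, among them the trace amine receptor gene Taar9, the syntaxin gene Stx7 and the matrix gene Ccn2, spanned -0.57 to 0.26 in the arrays labelled Duox2-/- and -0.60 to 0.13 in wild type. Those of Dbh on chromosome 2, among them the sarcosine dehydrogenase gene Sardh and the signalling gene Vav2, spanned -0.21 to 0.38 and -0.28 to 0.35 in the same order.

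**Figure D4:**
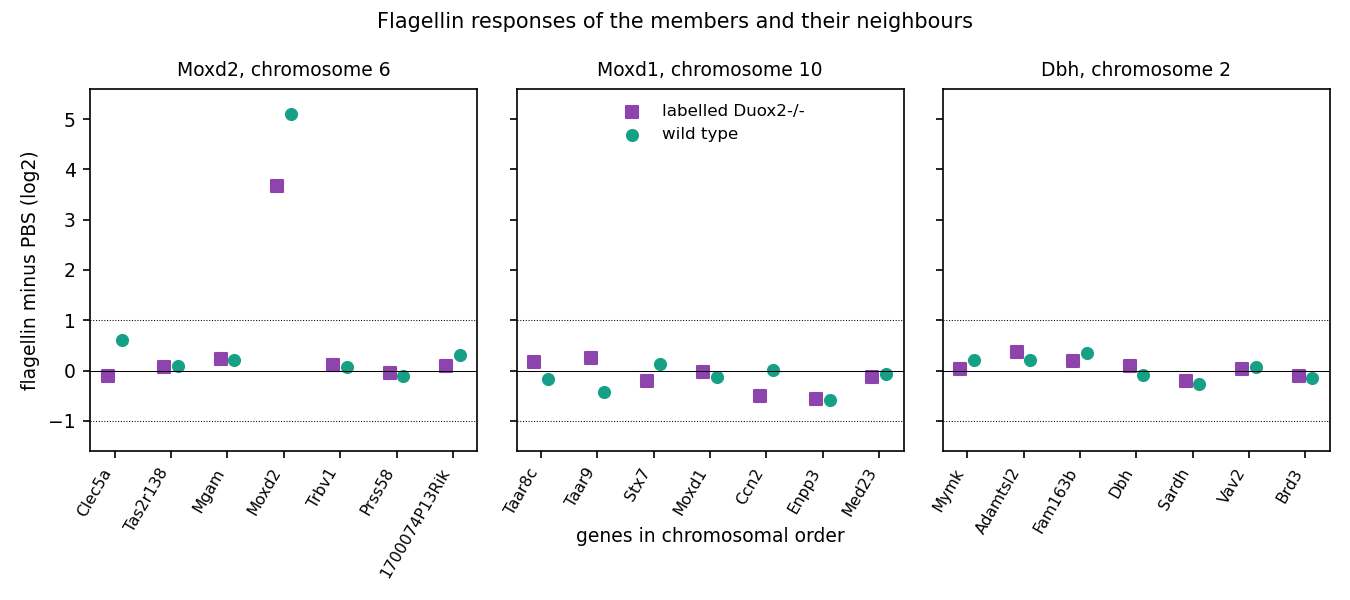
Flagellin minus PBS (log2) for each member and the 3 measured genes on either side of it, in chromosomal order, in the arrays labelled Duox2-/- and in wild type, with dotted lines at 2-fold. Moxd2 stands at 3.67 and 5.10, while every neighbour lies between -0.60 and 0.62.

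The genes with the pattern most like Moxd2 were found by the Euclidean distance between the 4 values of each gene, centred on its own mean, over the 12471 genes. They were Olfr728 at a distance of 2.62, Cxcl2 at 2.62, Olfr1257 at 2.64, Ccl20 at 2.78 and Olfr6 at 2.85, where the median gene was at 4.50. A gene with no difference at all between arrays would be at 4.46, so these 5 had the direction of Moxd2 and less of its size. They were chosen by that distance, so nothing is read from their direction. Cxcl2, a neutrophil attractant, had 5.90 after flagellin against 4.64 after PBS in the arrays labelled Duox2-/-, and 6.83 against 4.40 in wild type. Ccl20, an epithelial chemokine for lymphocytes and dendritic cells, had 7.31 against 6.41, and 8.44 against 5.97 in wild type. Cxcl2 reached the border of dim signal only on the wild-type flagellin array, and Olfr1257 only on the flagellin array labelled Duox2-/-. Ccl20 and Olfr728 reached it only on the flagellin arrays, so nothing is read from the differences of these genes.

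The olfactory receptor genes among them follow as a description, since they too were chosen by their distance from Moxd2. Olfr728 had 6.91 after flagellin against 5.37 after PBS in the arrays labelled Duox2-/-, and 6.79 against 4.72 in wild type. Olfr6 had 8.43 against 7.29, and 8.22 against 6.22 in wild type. As a family, counted after these values were seen, 413 olfactory receptors had median flagellin differences of 0.20 in the arrays labelled Duox2-/- and 0.14 in wild type, with 10 and 50 of them at least 2-fold higher and 3 and 0 at least 2-fold lower. Over all counted genes 0.176% and 0.922% were at least 2-fold higher. After PBS, 72 of the 413 were at least 2-fold higher in the array labelled Duox2-/- and 0 at least 2-fold lower. Of all counted genes 1.13% were at least 2-fold higher in that comparison. The wild-type PBS array enters both it and the wild-type flagellin difference. Receptors near the border were counted through an array where they were high, so nothing is read from these counts.

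Cell type markers are given for whole lists, and their part in the difference of Moxd2 was not tested. Mature olfactory neuron markers, among them Omp and Stoml3, were bright on all 4 arrays, with mean log2 signals of 10.5 and 10.2 in the flagellin and PBS arrays labelled Duox2-/- and 10.3 in both wild-type arrays. In the arrays labelled Duox2-/- 13 of these 13 genes had a flagellin difference above 0, with a median of 0.35 and a highest value of 0.42. In wild type 11 of 13 were above 0, with a median of 0.05 and a highest value of 0.33. Of all counted genes, 37.8% were above 0 in the arrays labelled Duox2-/- and 49.5% in wild type. The 10 matched markers of sustentacular and gland cells of the olfactory mucosa, among them Gpx6 and Cbr2, spanned -0.54 to 0.42 and -0.22 to 0.25 in the same order.

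Neutrophil markers had a median flagellin difference of 0.21 in the arrays labelled Duox2-/-, with 9 of 13 above 0, and of 1.14 in wild type, with 11 of 13 above 0. Their mean log2 signal was 6.77 and 6.69 in the flagellin and PBS arrays labelled Duox2-/-, and 7.31 and 6.16 in wild type. Of these 13 markers 9 were bright enough to be counted. Above 0 in the arrays labelled Duox2-/- were 37.8% of all counted genes and 66.9% of dim genes. In wild type these shares were 49.5% and 56.4%. T cell markers, of which 7 of 11 were matched and 1 was bright enough to be counted, had medians of 0.07 and 0.17. The counted one, Cd3g, named after its values were seen, had 5.13 after flagellin against 5.06 after PBS in the arrays labelled Duox2-/-, and 6.88 against 5.31 in wild type, differences of 0.07 and 1.57. Cd3g reached the border of dim signal only on the wild-type flagellin array, so nothing is read from its difference there. Skeletal muscle markers went opposite ways, with a median of -2.11 in the arrays labelled Duox2-/-, where 0 of 10 were above 0, and of 1.13 in wild type, where 10 of 10 were. The part of these cells in the values of Moxd2 was not tested.

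For Dbh and Moxd1 other cell types were compared as well. Markers of sympathetic neurons were mostly dim, with 3 of 10 matched genes counted (Th, Npy and Prph). Their median genotype differences were 0.50 after flagellin and 0.24 after PBS, beside 0.53 and 0.35 for Dbh, which is 1 of the 10. Over all dim genes the medians were 0.28 and 0.21, and over all counted genes -0.12 and -0.04. Schwann cell and olfactory ensheathing glia markers had -0.34 and 0.07. Markers of fibroblasts and perichondrium had -0.36 and 0.39. Moxd1 had -0.37 and -0.48, and the part of these cells in its values was not tested.

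Genes related to copper, ascorbate or catecholamines were grouped in 6 lists, and not all of them serve the chemistry of the members. Of the listed genes other than the members 62 were matched, 42 of them bright enough to be counted. After flagellin 0 of the 42 were past 2-fold in the arrays labelled Duox2-/- and 1 in wild type, where 0.682% and 0.978% of all counted genes were. Their medians were -0.06 and -0.03, beside -0.07 and -0.00178 over all counted genes. In limma 0 of the 42 passed for flagellin, where 0.281% of all genes did. An unadjusted p under 0.05 was found for 7 of the 42, or 16.7%, and for 805 of all 12471 genes, or 6.45%.

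The gene past 2-fold was Steap4, a reductase of iron and copper ions at membranes, from the list of copper uptake and delivery. It had 9.86 after flagellin against 9.17 after PBS in the arrays labelled Duox2-/-, and 10.7 against 9.43 in wild type, differences of 0.70 and 1.29. Its limma term was 0.99 ± 0.16 (SE, adjusted p = 0.0655, and 0.00619 to 0.371 over the alternatives). Steap2 of the same family differed by 0.46 and 0.36 (adjusted p = 0.483 in limma) and Steap3 by -0.34 and 0.14.

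In the ascorbate list, Slc2a3, a glucose carrier that also takes up oxidised ascorbate, had 7.24 after flagellin against 6.90 after PBS in the arrays labelled Duox2-/-, and 7.21 against 6.44 in wild type. Its limma term for flagellin was 0.56 ± 0.15 (SE, adjusted p = 0.346). Gulo, the last enzyme of ascorbate synthesis in mice, was dim and differed by 0.28 and 0.47.

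Of the 10 ascorbate genes tested for genotype in limma 2 passed, both lower in the arrays labelled Duox2-/-. This term was called for 4.37% of all genes, and 23.2% had an unadjusted p under 0.05. Gsto1, a glutathione transferase that reduces oxidised ascorbate, had a limma genotype term of -1.36 ± 0.14 (SE, adjusted p = 0.00653, and 0.000119 to 0.0650 over the alternatives). It had 10.2 and 10.4 in the flagellin and PBS arrays labelled Duox2-/-, against 11.8 and 11.6 in wild type. Slc23a1, an ascorbate transporter named after its values were seen, had a limma genotype term of -0.59 ± 0.13 (SE, adjusted p = 0.0435, and 0.0173 to 0.132 over the alternatives). It had 7.55 and 8.03 in the flagellin and PBS arrays labelled Duox2-/-, against 8.16 and 8.59 in wild type. With 1 array a group, the SE and p of these limma terms cannot separate variation between mice from flagellin responses that differ between genotypes.

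The 14 matched genes of catecholamine synthesis, storage and breakdown, Dbh among them, had median flagellin differences of 0.09 in the arrays labelled Duox2-/- and -0.06 in wild type. Th, the rate-limiting enzyme of catecholamine synthesis, had 6.64 after flagellin against 6.24 after PBS in the arrays labelled Duox2-/-, and 5.90 against 5.92 in wild type. Pnmt, which turns noradrenaline into adrenaline, was dim, with 5.41 against 4.92, and 4.46 against 4.61 in wild type. The vesicular carrier Slc18a2 was dim too, at 5.29 against 5.19, and 4.56 against 5.09 in wild type.

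Of the 14 receptors for dopamine and noradrenaline 7 were matched and 4 counted. The dopamine receptor gene Drd4 had 6.62 and 6.31 in the flagellin and PBS arrays labelled Duox2-/-, against 5.75 and 5.78 in wild type. Drd1, another dopamine receptor gene, had 6.85 and 6.32, against 6.03 and 6.06 in wild type. Both reached the border of dim signal only on the flagellin array labelled Duox2-/-, so no genotype test is given for them.

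Copper enzymes of other families, which include lysyl oxidases and ceruloplasmin, had median flagellin differences of -0.18 in the arrays labelled Duox2-/- and 0.11 in wild type over 14 matched genes. Lox, which cross-links collagen, had 8.13 after flagellin against 8.54 after PBS in the arrays labelled Duox2-/-, and 8.06 against 7.53 in wild type. Its genotype difference after PBS, 1.01, was past 2-fold, but was 0.924 with each array centred on its median. Its limma genotype term was 0.54 ± 0.21 (SE, adjusted p = 0.159). Cp, the ferroxidase ceruloplasmin, had 9.06 against 9.52, and 9.80 against 9.49 in wild type. None of these genes was past 2-fold after flagellin.

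**Figure D5:**
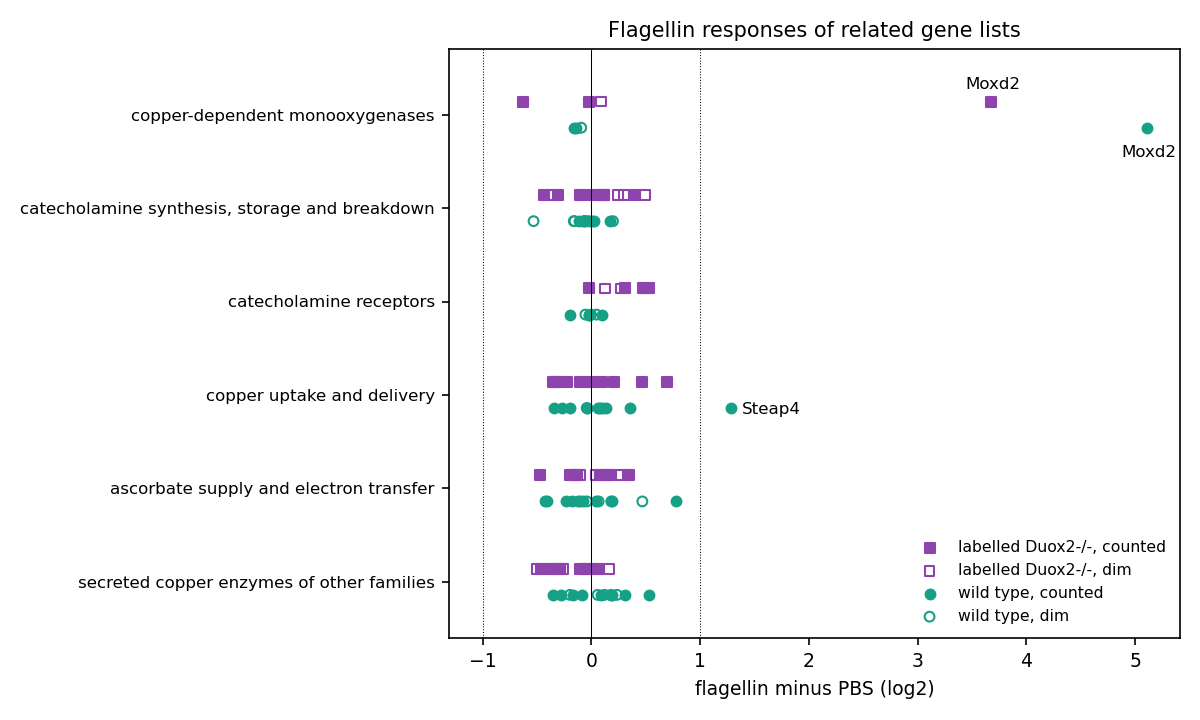
Flagellin minus PBS (log2) of each matched gene of the 6 lists, in the arrays labelled Duox2-/- and in wild type, with open symbols for genes dim on all 4 arrays and dotted lines at 2-fold. Beside Moxd2 at 3.67 and 5.10, Steap4 at 1.29 in wild type is the single point past a dotted line.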

How the data were processed

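The deposited values are log2 signals, as their range of 1.43 to 13.7 shows. Per the submitters' processing notes, RMA of Affymetrix Expression Console 1.1 produced them. The probe sets' genome build and background are not given here, and no further normalisation was applied.

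Of 35556 probe sets 21789 had 1 gene, 1621 several and 12146 no listed gene. For 999 genes with several, the brightest probe set on average was used. Chromosomal order came from RefSeq (GRCm38.p6). Genes were counted if their highest value reached 6.52.

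Comparisons were differences of log2 values. The additive model used limma 3.58.1 in R 4.3.3 (lmFit, eBayes) with Benjamini-Hochberg adjustment at 0.05 over 12471 genes. Python 3.11.15 and pandas 2.3.3 did the rest. The members, lists (146 of 167 entries matched) and rules were chosen with earlier results of these data known. Named were the members, their 3 neighbours on each side, the 5 genes nearest to Moxd2, the next largest responders, in each pathway list the genes past 2-fold or the 3 that differed most, and 2 markers a list, not all of them printed. Other names were chosen after their values were seen. Protein sequences were not used here.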

Additional observations from a re-analysis of the deposited data

Results flagged for a closer look

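With 1 array a group, opposite signs of the same contrast were looked for, and none of these differences between groups was tested. The genotype difference of Moxd2 was -0.42 after flagellin and 1.02 after PBS. The flagellin difference of Dbh was 0.0854 in the arrays labelled Duox2-/- and -0.0928 in wild type, both within the spread of dim genes. Of other named genes, those past 2-fold both ways follow. The muscle calcium pump gene Atp2a1 differed after flagellin by -2.63 in the arrays labelled Duox2-/- and 2.40 in wild type, and between genotypes by -1.85 after flagellin and 3.18 after PBS. Myh4 differed after flagellin by -1.10 in the arrays labelled Duox2-/- and 3.33 in wild type, and between genotypes by -2.78 after flagellin and 1.65 after PBS. It reached the border of dim signal only on the wild-type flagellin array. Between genotypes Ngp differed by -1.45 after flagellin and 1.68 after PBS, and 5430401F13Rik by 1.90 after flagellin and -1.75 after PBS. The fast troponin gene Tnnt3 differed after flagellin by -2.24 in the arrays labelled Duox2-/- and 1.37 in wild type.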

How the results depend on the processing

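The values of the 3 members were recomputed under the alternatives. Of these, 84 stayed within the spread over genes or on their side of the threshold and 7 moved further. Some of the 84 could not move. Each member had 1 probe set, so averaging the probe sets of a gene changed nothing. No Moxd1 value lay under the border of dim signal, so raising dim values left them as they were. No member past 2-fold changed sign. With dim values raised to the border, Moxd2 had flagellin differences of 2.15 in the arrays labelled Duox2-/- and 2.57 in wild type, a genotype difference after PBS of 0 and a response difference of 0.42, while the genotype differences of Dbh were 0. Repeated quantile normalisation gave a response difference of 1.12, and Moxd2 then ranked first in both genotypes. The Moxd1 genotype term had an adjusted p of 0.0766 to 0.150 over the limma alternatives.

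Counts over all genes depended on the settings. Genes past 2-fold numbered 85 for the flagellin response in the arrays labelled Duox2-/-, 122 for that in wild type, 250 for genotype after flagellin, 176 for genotype after PBS and 197 for the response difference. In the same order they numbered 514, 365, 1386, 638 and 884 at 1.5-fold, 249, 185, 595, 379 and 514 with all probe sets, and 42, 55, 129, 72 and 78 with the 75th percentile as filter. With no filter they were 137 for the response in the arrays labelled Duox2-/-, 312 for genotype after PBS and 318 for the response difference. Of the calls for genotype after PBS 80.1% were higher, and 69.4% after centring. In limma the flagellin term called 35 genes, 7 after centring, 60 with no filter, 0 after cyclic loess and 0 with all probe sets, where 687 and 1200 had an unadjusted p under 0.05. The limma genotype term called 545, then 161 after centring, 271 after quantile normalisation, 1 after cyclic loess, 1879 with no filter and 50 with all probe sets. The cause was not tested. No paired analysis was possible because each group had 1 array, so that no replicate numbers pair samples, and none could be left out; the additive limma model already sets flagellin against PBS within each genotype. Dim signal limits Dbh, Moxd2 after PBS and 5 of the 6 neighbours of Moxd2.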
